A study of Mus musculus with 6 samples.

Results

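Endothelial genes were followed in mouse liver RNA: 39 named genes of liver sinusoidal and vascular endothelium, taken by gene symbol, of which 38 had a row among the 24501 genes of the deposited table. Fcn3 was not analysed here. The 38 were sorted by textbook knowledge into 12 classed as sinusoidal, 5 as continuous and 21 as shared by most endothelia. Members and classes were chosen with earlier results of these data known, so the shares of members below are descriptive. Hepatic sinusoids are lined by fenestrated endothelial cells without a basement membrane, which take up waste molecules through scavenger receptors. Arteries, portal veins and central veins are lined by continuous endothelium, and sinusoidal cells can take on features of continuous capillaries, such as CD34, in injured liver. Vascular endothelial growth factor (VEGF), angiopoietin and bone morphogenetic protein (BMP) signals maintain these cells, and ETS and SOX factors drive their genes.

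The livers came from 6 male C57BL/6J mice, 3 in each of 2 groups, and every mouse carried floxed alleles of Gata4 (Gata4fl/fl). Control mice were given AAV8, an adeno-associated virus that infects liver, as an empty vector. Mice labelled Gata4LKO received AAV8-Tbg-Cre, whose Tbg promoter drives Cre in hepatocytes, so that endothelial cells were not the cells addressed by the vector. Both groups were injected at 8 weeks of age, ate a Western diet for 3 weeks, fasted for 6 hours and were 11 weeks old. Another label has the mice killed 7 days from injection, and the design text also speaks of refed mice. Each library was 1 mouse.

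The libraries held 33274223 to 37390345 reads. Gata4, the targeted gene (chromosome 14, 63198922 to 63271692, minus strand, mm10), had normalised counts of 704, 637 and 546 in the Control libraries and 867, 848 and 895 in those labelled Gata4LKO. The targeted transcript was thus not lower (log2 fold change 0.47, SE 0.10, limma adjusted p = 0.0641, exact two-sided permutation p = 0.1, the smallest that 3 against 3 allows). Liver endothelium also transcribes Gata4, and a whole-gene count cannot show the loss of floxed exons, so each direction below rests on the labels.

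Endothelial genes were higher in the libraries labelled Gata4LKO, led by endoglin (Eng), VE-cadherin (Cdh5), PECAM-1 (Pecam1) and the sinusoidal genes Dnase1l3, Ehd3 and Clec4g. All 38 had a mean normalised count of at least 10 and were tested, and 10 of them, 26.3%, rose (limma on log2(value + 1), Benjamini-Hochberg adjusted p under 0.05). None of the 38 fell. Over all 14385 genes tested 1.13% rose and 0.932% fell. Values of the 3 Gata4LKO livers all exceeded those of the 3 Control livers for 33 members, 86.8%, against 15.0% of all genes, and the reverse held for none, against 13.4%. Fold changes were positive for 36 members and for 48.5% of all genes. The median log2 fold change of the members was 0.57, or 1.49-fold, where that of all genes was -0.008 with quartiles of -0.16 and 0.20. The authors' deposited table has 24 members higher and 0 lower at an adjusted p under 0.05, where 5.98% of its genes were higher and 3.44% lower. A further 14 members had a limma adjusted p between 0.05 and 0.1.

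**Figure D1:**
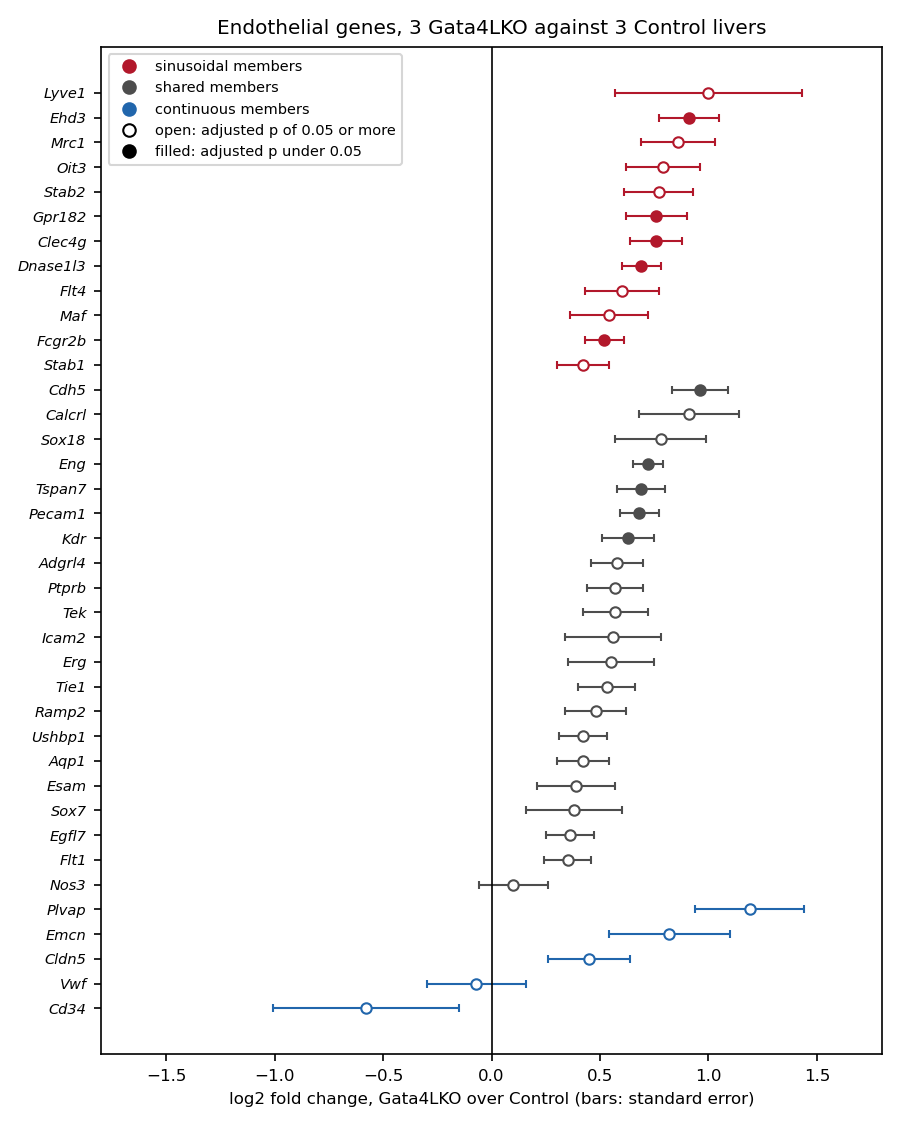
Log2 fold change (horizontal axis, Gata4LKO over Control, 3 livers each) of the 38 endothelial genes, with bars of 1 standard error, coloured by sinusoidal, shared and continuous members. Filled points are the 10 genes with an adjusted p under 0.05, all of them sinusoidal or shared, while Vwf and Cd34 lie left of 0.

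The sequence around the transcription start is shown for 3 members that rose and for Cd34, whose fold change was negative. The sequences are from RefSeq on GRCm38.p6, whose table held 26 start sites of 22 members, and each runs 5′ to 3′ on the strand of its gene from 250 bases before to 50 after the start. Capitals mark core letters of ETS sites, either AGGAAG or else CGGAAG, and of GATA sites, namely NGATAN with A or T first and A or G last, on either strand. Among the 6 members that rose and had a window, the 3 shown are those with an ETS match.
Eng (chr2:32646345-32646644, plus strand): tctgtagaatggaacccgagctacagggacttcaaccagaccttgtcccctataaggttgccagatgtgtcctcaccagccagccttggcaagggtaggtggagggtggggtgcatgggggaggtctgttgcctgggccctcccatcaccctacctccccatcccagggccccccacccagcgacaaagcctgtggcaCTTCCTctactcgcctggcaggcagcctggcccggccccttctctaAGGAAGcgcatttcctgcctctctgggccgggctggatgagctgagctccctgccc
Clec4g (chr8:3720602-3720901, minus strand): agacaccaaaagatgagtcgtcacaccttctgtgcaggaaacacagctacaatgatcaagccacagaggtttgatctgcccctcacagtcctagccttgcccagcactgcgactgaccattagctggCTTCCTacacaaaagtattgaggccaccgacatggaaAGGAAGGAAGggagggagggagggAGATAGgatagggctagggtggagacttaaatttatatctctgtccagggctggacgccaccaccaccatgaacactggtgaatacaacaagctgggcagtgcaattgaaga
Ehd3 (chr17:73804591-73804890, plus strand): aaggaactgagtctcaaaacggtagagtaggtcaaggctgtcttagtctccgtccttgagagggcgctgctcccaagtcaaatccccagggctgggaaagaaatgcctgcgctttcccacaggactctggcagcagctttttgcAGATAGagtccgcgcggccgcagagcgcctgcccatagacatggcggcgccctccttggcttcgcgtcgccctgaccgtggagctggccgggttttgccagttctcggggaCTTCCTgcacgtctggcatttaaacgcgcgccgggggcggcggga
Cd34 (chr1:194938571-194938870, plus strand): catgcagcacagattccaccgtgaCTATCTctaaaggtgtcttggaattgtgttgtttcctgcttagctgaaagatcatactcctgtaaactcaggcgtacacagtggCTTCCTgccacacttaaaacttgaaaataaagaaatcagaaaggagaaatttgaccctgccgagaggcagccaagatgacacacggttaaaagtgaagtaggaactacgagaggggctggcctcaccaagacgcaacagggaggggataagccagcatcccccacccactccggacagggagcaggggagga

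The Eng window held 2 ETS matches, beginning 52 and 6 bases before the start, and no GATA match. Clec4g held 3 ETS matches, a pair of which overlap, and a GATA match that begins 62 bases before the start. Ehd3 and Cd34 each held 1 ETS and 1 GATA match, so the kinds of match did not separate Cd34 from the others. Over the 26 member start sites, 65.4% held an ETS match and 38.5% a GATA match, where all 32851 start sites of the table gave 46.5% and 29.8%. The SOX letters AACAAT were in 19.2% of member sites and 10.7% of all sites, and TATAAA in 11.5% and 13.6%. Of the 6 start sites of members that rose, 3 held an ETS match, 3 a GATA match, 0 the SOX letters and 1 TATAAA. The 3 with an ETS match are the 3 shown. The windows of Fcgr2b, Kdr and Tspan7, which also rose, held 0 ETS matches and are not shown. Of these, only the Fcgr2b window held a GATA match. The members that rose outside these 6 had no window, and 6 windows are too few to compare these shares. These are shares of letter matches in short windows, without a test, and show no binding.

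The calls leaned on single libraries. Leaving out Control replicate 1, 2 or 3 gave 3, 17 or 1 members that rose, where 0.549%, 4.15% or 0.159% of all genes did. Leaving out Gata4LKO replicate 1, 2 or 3 gave 2, 7 or 0, where 0.403%, 0.473% or 0.0764% did. Tools differed as well: 24 members rose by DESeq2 (5.97% of all genes), the same 10 by edgeR (1.13%) and 0 by limma without its intensity trend (0.0417%). Scaled to equal library sums, 16 rose, and of all genes 2.28% rose and 0.904% fell. Over the 6 fits with 1 library left out, the median log2 fold change was 0.65 to 0.84 for the sinusoidal, 0.51 to 0.61 for the shared and 0.29 to 0.60 for the continuous members. Eng was called in 5 of the 6, more often than any other member.

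Markers of other liver cells also moved between the groups. Summed normalised counts of 14 Kupffer cell and macrophage markers were 4042 to 9266 in Control and 10823 to 22425 in Gata4LKO livers, and all 14 fold changes were positive (median log2 fold change 1.27). Stellate cell and fibroblast markers, also 14 of 14 positive, summed to 5608 to 13720.0 and 15685 to 18416 (median 1.03). The 8 tested lymphocyte markers, all positive, summed to 159.7 to 464 and 534 to 708 (median 1.02). These sums lean on Ptprc, with means of 177.8 in Control and 410.5 in Gata4LKO livers. The other markers of that list were low, with group means of 6.49 to 80.9. Hepatocyte markers went the other way, with 11 of 12 fold changes negative (median -0.27) and sums of 3628947 to 4736868 and 2731688 to 3252806. No marker in these 4 lists passed the test alone, and none was at 0 in all libraries. In bulk tissue, more cells of a type and more RNA per cell cannot be told apart.

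With the median level of the 36 tested Kupffer, stellate and lymphocyte markers as a covariate, 0 of the 38 members rose, and 0.0% of all genes did. The class medians were then 0.40, 0.49 and 0.23 for sinusoidal, shared and continuous members. That marker level was 7.51, 8.07 and 7.11 (log2) in Control replicates 1, 2 and 3 and 8.89, 8.41 and 8.59 in the Gata4LKO replicates. The groups did not overlap in it, so its share in the endothelial difference and that of the group cannot be told apart.

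Sinusoidal and shared members varied less between Control livers than the Kupffer, stellate and lymphocyte markers did, a description without a test. Relative to the Control mean, the median of all 38 members was -0.07, 0.13 and -0.02 (log2) over the Control livers in order of replicate, and 0.59, 0.53 and 0.64 over the Gata4LKO livers. The range over the Control livers was 0.26 for the sinusoidal, 0.18 for the shared and 0.63 for the continuous members. It was 1.23 for the Kupffer, 1.32 for the stellate and 1.94 for the lymphocyte markers, and 0.12 for the hepatocyte markers, which varied least of these. Most lymphocyte markers had low counts, and the part of counting noise in their range was not tested. Control replicate 2 held the highest Control value for 26 of the 38 members, and it was also highest of the Control livers in all 3 of those marker lists. Gata4LKO replicate 1 stood highest in the Kupffer list, at 1.81, whereas the highest endothelial values were in Gata4LKO replicate 3 for 19 members and in replicate 1 for 14.

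**Figure D2:**
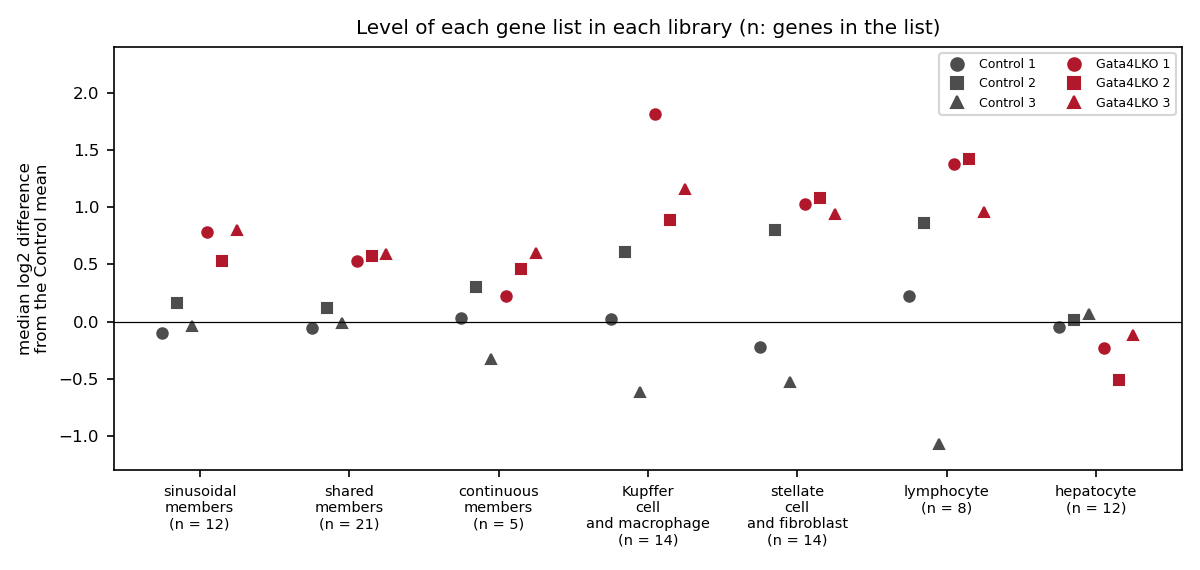
Median log2 difference from the Control mean (vertical axis) for 3 classes of endothelial genes and 4 marker lists, 1 point per library, shaped by replicate. Shared and sinusoidal endothelial genes form tight groups in the Control livers, where Kupffer markers range over 1.23 and stellate markers over 1.32.

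All 10 members classed as signalling receptors or partners, most for growth factors, were higher in every Gata4LKO liver than in any Control liver. Of the 10, 3 rose. Among all genes 15.0% were higher without overlap and 1.13% rose. Eng, a co-receptor for BMP9 and BMP10 (chromosome 2, 32646595 to 32682669, plus strand), had normalised counts of 1261, 1352 and 1270.4 in Control and 2252, 2011 and 2130.1 in Gata4LKO livers. It rose 1.64-fold (log2 fold change 0.72, SE 0.07, limma adjusted p = 0.0101), from 1294 ± 49.8 to 2131 ± 121 (SD, n = 3), with a gap between the groups wider than the range within either. It missed the threshold when Gata4LKO replicate 3 was left out (limma adjusted p = 0.0591). Kdr, the main VEGF receptor of endothelium (chromosome 5, 75932827 to 75978458, minus strand), had 815, 942 and 922 in Control livers and 1379.9, 1192 and 1580.3 in Gata4LKO livers. Kdr rose 1.54-fold (SE 0.12 on the log2 scale, limma adjusted p = 0.0447). Gpr182, an atypical chemokine receptor of sinusoidal cells, went from 297, 363 and 321 to 638, 461 and 575 and rose 1.69-fold (limma adjusted p = 0.0448).

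The other VEGF receptors had smaller or less even differences. Flt1, which binds VEGF-A as a decoy, had a log2 fold change of 0.35 (SE 0.11), and Flt4, the VEGF-C receptor kept by sinusoidal and lymphatic cells, 0.60 (SE 0.17). Neither passed (limma adjusted p = 0.117 and 0.0979). Flt4 counts were 533, 555 and 610.0 in Control livers and 1099, 682 and 835 in Gata4LKO livers, so that replicate 1 was highest for Flt4 and replicate 3 for Kdr. The angiopoietin receptor Tek, its relative Tie1 and Ptprb, the phosphatase that dampens Tek, differed by 0.57, 0.53 and 0.57 on the log2 scale, with limma adjusted p between 0.0657 and 0.0901. Ptprb, the most counted of the shared members, had 1675, 1781 and 1778 in Control livers against 2328, 2319 and 3184. Tek and Tie1 kept a similar ratio, 0.745 ± 0.057 Tek counts per Tie1 count in Control and 0.768 ± 0.0665 in Gata4LKO livers (SD, n = 3), and these ratios overlapped.

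Calcrl and Ramp2 form the adrenomedullin receptor. Calcrl counts were 226, 426 and 233 in Control and 521, 540.0 and 536 in Gata4LKO livers, with Control replicate 2 well above the other Control livers (log2 fold change 0.91, SE 0.23, limma adjusted p = 0.0815). Without Control replicate 2 Calcrl was called, at 1.21 (limma adjusted p = 0.00553), and with the marker covariate its log2 fold change was 0.14. Ramp2 had 120.4, 99.7 and 112 against 153, 159 and 152 (log2 fold change 0.48, limma adjusted p = 0.0996), and 33.4% of its exon bases are shared with Vps25 on the same strand, so its counts are uncertain.

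**Figure D3:**
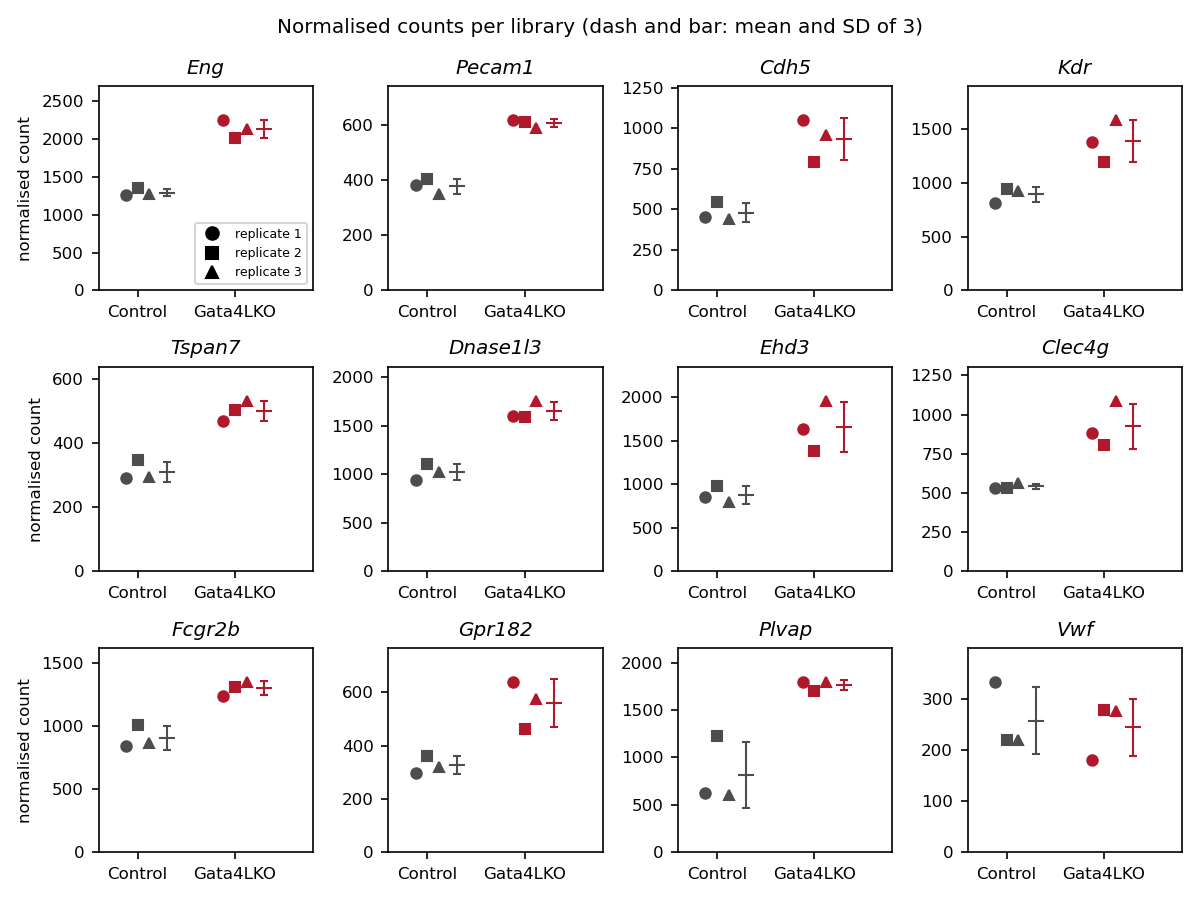
Normalised counts (vertical axes, from 0) of 12 endothelial genes in each of the 3 Control and 3 Gata4LKO livers, with mean and SD beside the points. The 10 genes that rose show no overlap, Plvap shows a high Control replicate 2 at 1222, and Vwf overlaps.

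Scavenger and uptake receptors, the hallmark of the sinusoid, did not overlap between the groups for any of the 6 members, and 2 rose. Among all genes 15.0% were higher without overlap and 1.13% rose. Of these receptors, Mrc1, Fcgr2b, Stab1 and Lyve1 are also expressed by macrophages. Clec4g, a lectin of sinusoidal cells (chromosome 8, 3707064 to 3720651, minus strand), had 532, 532 and 561 in Control and 886, 806 and 1086 in Gata4LKO livers. It rose 1.70-fold (SE 0.12 on the log2 scale, limma adjusted p = 0.0285), and its Control values were nearly equal. Fcgr2b, the inhibitory Fc receptor that clears immune complexes, had 842, 1012 and 865 against 1239.7, 1309 and 1349.9 and rose 1.44-fold (limma adjusted p = 0.0376).

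The stabilins Stab1 and Stab2 bind hyaluronan and modified lipoproteins. Stab2 counts were 1315, 1982 and 1488 in Control and 2460.0, 2522 and 3118 in Gata4LKO livers (log2 fold change 0.77, SE 0.16, limma adjusted p = 0.0584). Stab1 had a log2 fold change of 0.42 (SE 0.12, limma adjusted p = 0.0996). The mannose receptor Mrc1, shared with macrophages, had 886, 1153 and 754 against 1907, 1398 and 1714 (log2 fold change 0.86, SE 0.17, limma adjusted p = 0.0536). Lyve1, a hyaluronan receptor of midzonal sinusoids and lymphatics, rested on a single liver. Its counts were 55.6, 90.4 and 64.5 in Control livers and 282, 96.4 and 96.4 in Gata4LKO livers. Lyve1 was 1.99-fold higher on average (SE 0.43 on the log2 scale, limma adjusted p = 0.221), with a log2 fold change of 0.48 without Gata4LKO replicate 1, the liver that was also highest in the Kupffer list. The part of macrophages in the Lyve1 counts was not tested.

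Junction and adhesion genes included a pair that rose and the member furthest below 0. Cdh5, the adhesive cadherin of endothelial junctions (chromosome 8, 104101625 to 104144511, plus strand), had 454, 549 and 438 in Control and 1052, 793 and 958 in Gata4LKO livers. At 1.94-fold it had the largest change among the 10 members that rose (log2 fold change 0.96, SE 0.13, limma adjusted p = 0.0216). Pecam1 (chromosome 11, 106654217 to 106750628, minus strand) had 382, 403 and 348 against 618, 611 and 590.4 and rose 1.61-fold (SE 0.09 on the log2 scale, limma adjusted p = 0.0174). Both genes mark endothelium of all liver vessels. Esam, Icam2, Cldn5, Emcn and Adgrl4 differed by 0.39 to 0.82 on the log2 scale and did not pass, with limma adjusted p between 0.059 and 0.253, and of these Esam alone overlapped between the groups.

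Secreted and membrane proteins gave 3 of the calls. Dnase1l3, a secreted nuclease that digests DNA in microparticles (chromosome 14, 7964533 to 7994573, minus strand), had 935, 1108 and 1022 in Control and 1598, 1592 and 1751 in Gata4LKO livers. It rose 1.61-fold (SE 0.09 on the log2 scale, limma adjusted p = 0.0160). Ehd3, an endosomal recycling ATPase (chromosome 17, 73804134 to 73832094, plus strand), had 851, 984 and 793 against 1629, 1380.2 and 1952 and rose 1.88-fold (SE 0.14, limma adjusted p = 0.0285). Tspan7, a tetraspanin, had 291, 347 and 293 against 468, 503 and 531 and rose 1.61-fold (SE 0.11, limma adjusted p = 0.0287).

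In the same protein groups, Oit3, a secreted glycoprotein of sinusoidal cells, had 274, 296 and 374 in Control and 560.5, 448 and 632 in Gata4LKO livers (log2 fold change 0.79, SE 0.17, limma adjusted p = 0.0584). The water channel Aqp1, also present in bile ducts, had a log2 fold change of 0.42, the harmonin-binding protein gene Ushbp1 0.42 and the secreted Egfl7 0.36, with limma adjusted p between 0.0907 and 0.108. Nos3, the endothelial nitric oxide synthase, had 89.5, 86.2 and 98.1 against 108, 100.4 and 85.0, with overlapping groups (log2 fold change 0.10, SE 0.16, limma adjusted p = 0.78). Antisense transcripts cover 25.2% of the exon bases of Nos3, and the strand setting of the counting is not given in the sources used here.

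None of the 4 transcription factors among the members passed. Sox18, an early endothelial SOX factor, had 83.3, 81.0 and 80.3 in Control and 183, 142 and 107 in Gata4LKO livers (log2 fold change 0.78, SE 0.21, limma adjusted p = 0.0907). Its Control values were nearly equal, while its Gata4LKO values spread widely. Maf, a factor of sinusoidal identity that macrophages also express, had 1406, 1923 and 1146 against 2083, 1984 and 2317 (log2 fold change 0.54, limma adjusted p = 0.129), and -0.13 with the marker covariate. Erg and Sox7, also endothelial factors, differed by 0.55 and 0.38 on the log2 scale (limma adjusted p = 0.16 and 0.341).

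The calls fell among sinusoidal and shared members, while the difference between sinusoidal and continuous members overlapped by library and was not tested. Over all genes tested 1.13% rose and 15.0% were higher without overlap. Of 12 sinusoidal members 5 rose and all 12 were without overlap, with a median log2 fold change of 0.76. Of 21 shared members 5 rose and 18 were without overlap, with a median of 0.56. None of the 5 continuous members passed, and 3 were without overlap. Their fold changes spanned -0.58 to 1.19, with a median of 0.45 that was 0.29 without Control replicate 3. The highest of these, 1.19, is that of Plvap, whose place in the class is uncertain, as given below. With only 5 genes, the lack of a call does not set this class apart from the others. The sinusoidal minus the continuous median, both relative to the Control mean, was -0.13, -0.14 and 0.29 (log2) over the Control livers, against 0.56, 0.07 and 0.20 over the Gata4LKO livers. Leaving out the 5 sinusoidal members that macrophages also express (Mrc1, Maf, Fcgr2b, Stab1 and Lyve1) left the sinusoidal median at 0.76, with 4 of the other 7 called.

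Within the continuous class the genes went different ways. Plvap, which forms the diaphragms of fenestrae and caveolae, had 628, 1222 and 601 in Control and 1794, 1699 and 1791 in Gata4LKO livers. Its difference was 2.28-fold (log2 fold change 1.19, SE 0.25) and missed the threshold (limma adjusted p = 0.0587), passing without Control replicate 2 at 1.52 (adjusted p = 0.00302). With the marker covariate the log2 fold change of Plvap was 0.23. Vwf, the clotting carrier of larger vessels, had 332, 219 and 219.5 against 180.0, 278 and 275 (log2 fold change -0.07, SE 0.23, limma adjusted p = 0.891). Cd34, a sialomucin of continuous endothelium, had 37.0, 60.3 and 26.2 against 22.5, 44.2 and 17.0 (log2 fold change -0.58, SE 0.43, limma adjusted p = 0.478). Both Vwf and Cd34 overlapped, and the sign of Vwf turned positive without Control replicate 1 or without Gata4LKO replicate 1, at 0.13 each.

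Set against Pecam1 in the same liver, a comparison chosen after the values were seen and given without a test, Vwf and Cd34 took a lower share in Gata4LKO livers. Vwf counts per Pecam1 count were 0.871, 0.544 and 0.630 in Control and 0.291, 0.455 and 0.466 in Gata4LKO livers. For Cd34 these ratios were 0.0970, 0.149 and 0.0751 against 0.0364, 0.0722 and 0.0288. Neither ratio overlapped between the groups, and such a ratio shows unequal change only. Pecam1 itself rose 1.61-fold, so a gene that changed little had a lower ratio by construction. The lack of overlap thus does not show a fall of Vwf or Cd34. The lower ratio was not particular to these genes of larger vessels. Nos3, a shared member, had 0.235, 0.214 and 0.282 counts per Pecam1 count against 0.175, 0.164 and 0.144, also without overlap. Gata4 per Pecam1 was lower without overlap as well, at 1.66 ± 0.156 against 1.44 ± 0.0695 (SD, n = 3). Plvap, a continuous member, went from 2.13 ± 0.778 to 2.91 ± 0.127 per Pecam1 count, with overlap. Acta2, a smooth muscle gene that activated stellate cells also express, had 77.2, 55.1 and 14.9 in Control and 2.05, 175 and 18.9 in Gata4LKO livers. The summed level of the 3 tested smooth muscle markers was 124 to 329 in Control and 107 to 591 in Gata4LKO livers, and their part in the Vwf and Cd34 values was not tested. The lymphatic marker Mmrn1 was likewise uneven, at 57.6, 20.8 and 0 against 4.09, 34.1 and 3.78.

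Per kilobase of exon the members spanned a wide range of levels. Aqp1 had the highest mean in Control livers, at 14.2 reads per kilobase of exon and 1e+06 reads, followed by Plvap at 11.6, Eng at 9.07 and Clec4g at 6.25. Cd34 stood lowest, at 0.159, under Emcn at 0.220 and Vwf at 0.456. In Gata4LKO livers the means were 26.0 for Plvap and 19.5 for Aqp1, and neither gene passed the test between groups. The order of these genes in Control livers is that of their means, with an SD of 4.58 for Plvap and 1.67 for Aqp1 (n = 3). The scavenger receptor Stab2, at 5.15 in Control and 9.03 in Gata4LKO livers, stood well above Vwf and Cd34 in both groups.

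**Figure D4:**
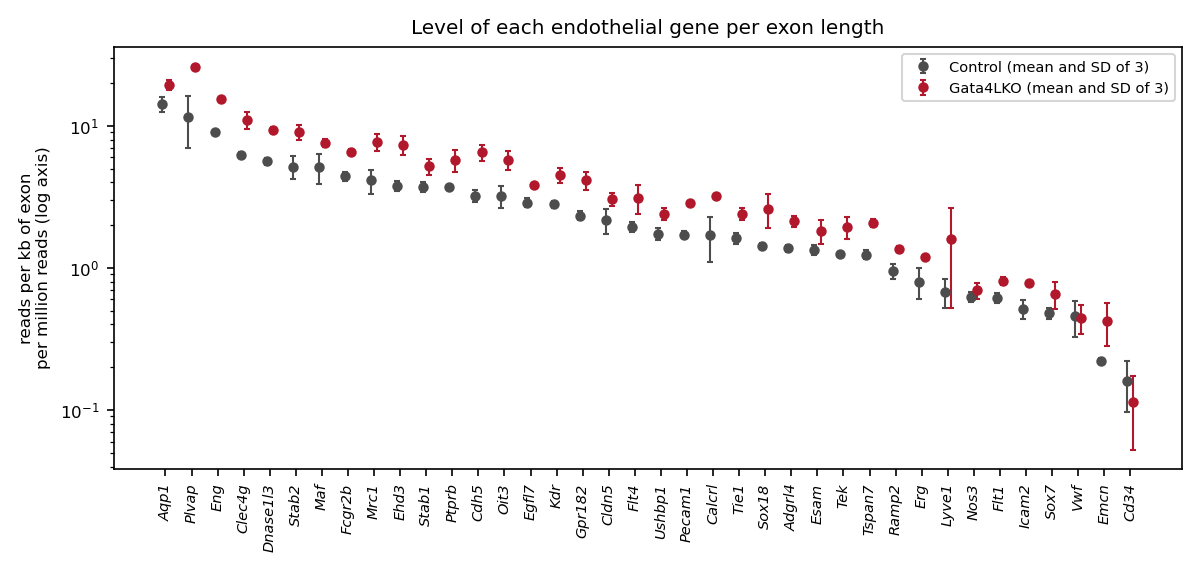
Level of the 38 endothelial genes in reads per kilobase of exon and 1e+06 reads (vertical log axis), ordered by the Control mean, with SD over 3 livers. Red Gata4LKO points lie above grey Control points except for Vwf and Cd34, at the low end of the scale.

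Beyond the members, 97 further genes of endothelial signalling and identity in 11 lists were examined, of which 87 were tested, 6 rose and none fell. Over all genes tested 1.13% rose and 0.932% fell, so the lack of a fall is near the share of all genes. Fold changes of 69 of the 87 were positive, against 48.5% of all genes. Of 16 further endothelial transcription factors 3 rose, all of the ETS family: Ets2 1.61-fold (limma adjusted p = 0.0183), Elk3 1.70-fold (0.0447) and Ets1 1.76-fold (0.0481). Ets2 counts were 620.3, 532 and 598 in Control and 1013, 904 and 907 in Gata4LKO livers, a clear gap. ETS genes are also transcribed in leukocytes, whose markers were also higher, as given above, and their part in these values was not tested.

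In the Notch list 1 of 10 tested genes rose, where 1.13% of all genes did. That gene was the receptor Notch1. Its counts were 881, 889 and 742 in Control and 1372, 1332 and 1616 in Gata4LKO livers (1.72-fold, SE 0.11 on the log2 scale, limma adjusted p = 0.0210). Its endothelial ligand Dll4 stood at 0.78 in log2 fold change (limma adjusted p = 0.164), and the ligand Jag1 0.44 (0.093). Among 5 caveolar genes 1 rose, Cavin2, 1.74-fold (limma adjusted p = 0.0312), while Cav1, which builds caveolae, had -0.34 (0.713). Of 17 tested further endothelial surface genes 1 rose, Cd300lg, a mucin-like receptor of capillary endothelium, and 16 had positive fold changes. Cd300lg had 271, 269 and 272 in Control and 442, 396 and 465 in Gata4LKO livers (log2 fold change 0.68, SE 0.10, limma adjusted p = 0.0268).

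Ligands made outside the endothelium did not move as a block. Vegfa, transcribed by hepatocytes, had 7891, 8836 and 7988 in Control and 6736, 6298 and 6223 in Gata4LKO livers. The Vegfa groups did not overlap, and its log2 fold change of -0.36 (SE 0.07) missed the threshold (limma adjusted p = 0.0577), while its endothelial receptor Kdr rose. The co-receptor Nrp2 had a log2 fold change of 1.13 (SE 0.29, limma adjusted p = 0.0826), and 0 of the 6 tested VEGF ligands and co-receptors passed. Gdf2, which encodes BMP9, a ligand for which Eng is a co-receptor, had 214, 464 and 242 in Control and 686, 574 and 651 in Gata4LKO livers (log2 fold change 1.14, SE 0.27, limma adjusted p = 0.0721). Gdf2 is made by stellate cells, whose markers were also highest of the Control livers in replicate 2. That liver also held the highest Control value for 26 of the 38 members, and the part of stellate cells in the Gdf2 values was not tested. The inhibitory Smad6 stood at 0.38 in log2 fold change (limma adjusted p = 0.118), and Acvrl1, the signalling receptor that works with endoglin and is named here after its values were seen, 0.94 (0.125). Bmp10, the other ligand of Eng, is also named after its values were seen. It had 61.7, 179 and 41.1 in Control and 184, 219 and 238 in Gata4LKO livers (log2 fold change 1.45, SE 0.48, limma adjusted p = 0.133). None of the 12 genes of the BMP9 list passed, and its median was 0.14.

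Angiopoietin ligands were low, with 12.1 to 39.1 normalised counts of Angpt2 in Control and 10.4 to 29.1 in Gata4LKO livers, and none of the 3 tested genes of that list passed. Svep1 and Angpt1 stood at 0.36 and -0.15 in log2 fold change (limma adjusted p = 0.71 and 0.827). The adrenomedullin list had 0 of 3 tested genes past the threshold, with the receptor partner Ramp1 at 1.07 (limma adjusted p = 0.0744) and the ligand Adm at 0.60 (0.396).

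Genes of both ends of the sinusoid had positive fold changes without passing. The 6 tested periportal and arterial genes were all positive (median log2 fold change 0.53), with Ltbp4 at 0.75 (limma adjusted p = 0.0768). The pericentral and central vein list was positive for 8 of 9 (median 0.44), the exception being Vwf, with Kit at 0.61 (limma adjusted p = 0.0687). Rspo3, an angiocrine signal to pericentral hepatocytes, had 133, 179.7 and 114 in Control and 168, 213 and 242 in Gata4LKO livers, which overlapped (limma adjusted p = 0.178). Among 4 tested leukocyte adhesion genes, Vcam1 had 150.2, 199.5 and 118 against 758, 271 and 400.5 (log2 fold change 1.51, SE 0.36, limma adjusted p = 0.0744). Vcam1 is also made by Kupffer cells, and its highest value was in Gata4LKO replicate 1, as for the Kupffer markers. The part of Kupffer cells in the Vcam1 values was not tested. Icam1, the other of the list named by the rule, had 0.47 (limma adjusted p = 0.168).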

How the data were processed

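RNA was extracted from frozen liver and sequenced as stranded, mRNA-captured libraries, per the labels' protocols. For the deposited files, the submitters' notes list FastQC, STAR 2.6.0c, DESeq2 and the mm10 build; how reads were counted per gene, and on which strand, is not given in the sources used here. The deposited signal is a normalised count, a gene count divided by 1 factor per library. Within 0.1, 100% of values were whole multiples of 1 read, and edgeR and DESeq2 were run on those reads. The authors' deposited comparison holds log2 fold changes, standard errors and adjusted p-values. Its ratio column of linear folds, its statistic (a score) and its unadjusted p-value, as deposited, were not used.

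Genes with a mean of at least 10, 14385 in all, were tested with limma 3.58.1 (R 4.3.3) on log2(value + 1), two-sided, with an intensity trend, no covariate and Benjamini-Hochberg adjustment over all of them at 0.05. The added 1 shrinks the fold changes of low genes. The scripts were tested on simulated counts. Each library is a separate mouse by its label; p-values measure the spread between these mice. Replicates were numbered in accession order, and no pair of libraries agreed within sampling noise (chi-square per degree of freedom at least 28.2 over 15 pairs). Exons and coordinates are from GENCODE M21 on mm10.

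Members, classes and lists were chosen with earlier results of these data known. By rule, counts in every library are given for members that passed, for the next by smallest p up to 12 and for the 2 most counted of each class. Of each further list the rule names up to 4 genes that passed, or else the 2 of smallest p. Flt4, Calcrl, Ramp2, Lyve1, Nos3, Sox18, Cd34, Jag1, Cav1, Angpt2, Acta2, Mmrn1, Acvrl1, Bmp10 and the lymphocyte marker Ptprc are named with values beyond it, chosen after their values were seen. Alternatives were pseudocounts of 0.5 or 5, keeping every gene or those with a mean of 50, equal library sums, TMM factors, no trend, edgeR 4.0.16, DESeq2 1.42.0, the marker covariate and each library left out.

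None of the 6 tested cholangiocyte, 3 smooth muscle, 2 lymphatic endothelial, 1 platelet and 5 red cell markers passed. Their median log2 fold changes were -0.49, -0.26, 0.01, -0.16 and 0.32. The 2 lymphatic markers were Prox1, at 7635 to 12345 normalised counts, and Mmrn1, at 0 to 57.6. Levels so unlike give a median that does not describe lymphatic endothelium.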

Additional observations from a re-analysis of the deposited data

How the results depend on the processing

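No paired analysis was possible because the labels give each mouse its own number and pair no mice. The count of genes changed, 296, was 458 with equal library sums, 25 without the trend, 1364 with DESeq2, 1 with the marker covariate and 27 to 794 with a library left out. The count of members higher, 10, was 16, 0, 24 and 0 under the same settings and 0 to 17 with a library left out. With equal sums 328 genes were higher and 130 lower, against 162 and 134. No member was called lower in any fit. Of the further pathway genes 6 were higher, 0 without the trend, 18 with DESeq2 (where 1 was lower), 0 with the covariate and 0 to 16 with a library left out. The shares of all genes higher in those fits were 1.13%, 0.0417%, 5.97%, 0.0% and 0.0764% to 4.15%. The sinusoidal median of 0.76 was 0.40 with the covariate, while the continuous median of 0.45 was 0.23 with the covariate and 0.29 to 0.60 with a library left out. The log2 fold change of Gata4 was 0.52 with equal sums (limma adjusted p = 0.0494) and 0.47 with DESeq2 (adjusted p = 0.00726), past the threshold in both, and missed it elsewhere. Signs turned for 5 members, none of them called: with the covariate Maf, Cldn5, Lyve1, Esam and Vwf had -0.13, -0.0014, -0.20, -0.03 and 0.28, and Vwf had 0.13 without Control replicate 1 and 0.13 without Gata4LKO replicate 1, the range over left-out libraries being -0.18 to 0.13. The other 33 kept their sign in each of the 16 alternatives that tested them. The cause of these moves was not tested. With 3 livers a group, a p that misses the threshold does not show that a gene was equal; Cd34, the least counted member by mean, is limited most by counting.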
